A study of Mus musculus with 6 samples.

Results

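Gluconeogenic genes were followed through 6 liver tumors by RNA-seq, as 7 genes of the 34745 in the deposited table. They were chosen by symbol: *Pcx*, *Pck1*, *Fbp1* and *G6pc*, which encode the enzymes specific to the route, *Slc37a4*, *Ppargc1a* and *Tat*. Each symbol matched 1 row, and all 7 genes passed the filter on low counts. Of the 6 tumors, 3 came from *Prmt3f/f* mice, whose *Prmt3* is floxed and which the labels call WT, and are named here by their replicate numbers 7, 66 and 71. The other 3 came from *Prmt3LKO* mice (Alb-Cre; *Prmt3f/f*), with the replicate numbers 92, 93 and 94. Both groups had received DEN, a carcinogen activated in hepatocytes, at 25 mg/kg by intraperitoneal injection at 2 weeks of age, and 10% CCl4 in oil, a hepatotoxin, at 0.5 ml/kg repeatedly from 6 weeks, and the mice, all male, were killed at 26 weeks. Cre under the albumin promoter is active in hepatocytes, so cells of a *Prmt3LKO* tumor in which it was never active keep the gene. No tissue without DEN and CCl4 was analysed here. Feeding state, time of day and whether the tumors came from separate animals are not given in the sources used here, so p-values measure only the spread between these samples, which may in part be technical.

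Gluconeogenesis makes glucose from lactate, glycerol and amino acids, and hepatocytes carry most of it during fasting. Pyruvate carboxylase (*Pcx*) turns pyruvate into oxaloacetate in mitochondria, phosphoenolpyruvate carboxykinase (*Pck1*) turns oxaloacetate into phosphoenolpyruvate, fructose-1,6-bisphosphatase (*Fbp1*) bypasses phosphofructokinase, and glucose-6-phosphatase (*G6pc*) releases free glucose. The last step takes place in the endoplasmic reticulum, into which the transporter SLC37A4 carries glucose-6-phosphate. Glucagon through cAMP, glucocorticoids and the coactivator PGC-1α (*Ppargc1a*) raise transcription of *Pck1* and *G6pc*, and insulin lowers it. Tyrosine aminotransferase (*Tat*) begins the breakdown of tyrosine to fumarate and acetoacetate and is a classical glucocorticoid target of hepatocytes.

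The total count was between 18440244 and 27976598 reads per tumor, at which 3 counts stand for 0.105 to 0.171 CPM (counts scaled by TMM-adjusted library size). *Prmt3* was lower in every *Prmt3LKO* tumor, at 2.80, 2.03 and 3.82 CPM, than in *Prmt3f/f* tumors, at 6.60, 8.49 and 10.2 CPM, with a log2 fold change of -1.55 (SE 0.29) and an adjusted p of 0.592 by edgeR's quasi-likelihood test. Hepatocyte markers dominated all 6 libraries, with a summed level of 6 markers (*Alb*, *Ttr*, *Apoa1*, *Apob*, *Fgb*, *Ahsg*) of 151061 to 222854 CPM in *Prmt3f/f* tumors and 169608 to 184532 CPM in *Prmt3LKO* tumors. Of other cell types, 7 leukocyte markers summed to 308.2 to 838.4 and 222.6 to 315.0 CPM in the same order, with all 7 lower in *Prmt3LKO* tumors on average. The 5 cholangiocyte markers, almost all *Spp1*, reached 4103 CPM in *Prmt3f/f* tumor 7, against 206 to 1016 CPM in the other 5 tumors. Kidney also performs gluconeogenesis, and 12 kidney markers summed to 2.95 to 4.29 and 9.30 to 13.1 CPM, which did not overlap. Of the 12, *Kap*, *Slc34a1* and *Umod* passed the filter. For each, all *Prmt3LKO* tumors lay above all *Prmt3f/f* tumors, as held for 5.56% of all genes tested. The part of kidney cells in the levels was not tested. Stellate cell markers summed to 284 to 681 and 312 to 483 CPM, and endothelial markers to 186 to 284 and 227 to 255 CPM. Of 5 adipocyte markers, *Adipoq* and *Lep* had 0 counts in all 6 tumors, and the sums of 2.05 to 3.62 and 2.89 to 4.52 CPM were nearly all *Adrb3*. Of 6 intestinal markers, *Sis*, *Cdx2* and *Alpi* had 0 counts in all 6 tumors. *Fabp2* made up nearly all of their sums of 36.1 to 91.7 and 44.3 to 61.4 CPM, and *Vil1* had 0.877, 0.467 and 0.457 CPM in *Prmt3f/f* and 0.743, 2.21 and 5.28 CPM in *Prmt3LKO* tumors.

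The start regions of *Pck1*, *G6pc* and *Tat*, the 3 genes that varied most between tumors, are shown to place these results on the genome. The sequences are the 250 bases before the annotated RefSeq start in GRCm38.p6, read 5′ to 3′ on the strand of the gene, at chr2:173152823-173153072 for *Pck1*, chr11:101367466-101367715 for *G6pc* and chr8:109990186-109990435 for *Tat*, all on the plus strand. The gene coordinates deposited with the counts begin inside these sequences for *Pck1*, at 173153048, and for *G6pc*, at 101367561. Distances given here are from the RefSeq start. Capitals mark matches of the motifs described after them, on either strand.
Pck1: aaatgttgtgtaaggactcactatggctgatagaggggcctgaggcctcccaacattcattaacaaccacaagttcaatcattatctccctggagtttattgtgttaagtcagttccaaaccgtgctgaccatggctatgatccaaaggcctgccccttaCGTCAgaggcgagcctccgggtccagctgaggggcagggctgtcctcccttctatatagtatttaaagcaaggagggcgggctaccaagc
G6pc: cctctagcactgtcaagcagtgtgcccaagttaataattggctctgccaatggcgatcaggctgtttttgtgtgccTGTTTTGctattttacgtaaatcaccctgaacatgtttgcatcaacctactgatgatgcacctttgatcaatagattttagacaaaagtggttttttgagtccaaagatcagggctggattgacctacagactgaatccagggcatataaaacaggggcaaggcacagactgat
Tat: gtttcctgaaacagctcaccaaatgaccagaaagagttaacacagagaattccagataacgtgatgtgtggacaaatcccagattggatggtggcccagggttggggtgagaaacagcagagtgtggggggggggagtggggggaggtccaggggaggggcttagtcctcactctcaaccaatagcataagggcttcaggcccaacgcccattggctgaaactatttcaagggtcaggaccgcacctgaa

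The core TGACG, which forms the first bases of the cAMP response element, was searched on both strands in windows from 250 bases before to 50 bases after the start. It was found in 20.8% of all 32851 windows of the RefSeq table and in 4 of the 10 windows of the 7 genes. These windows belonged to *Pck1*, *Ppargc1a* and *Slc37a4*, 3 of the 7 genes, and those of *Slc37a4* overlap and share a match. In *Pck1* the core lay 90 to 86 bases before the start, on the minus strand. The FOXO motif TGTTTAC occurred in 3.65% of all windows and in no window of the 7 genes. A form found in insulin response sequences, TGTTTTG, occurred in 6.28% of windows and in that of *G6pc*, 174 to 168 bases before the start. The full cAMP element, TGACGTCA, which contains the core, and the HNF4A motif CAAAGTCCA, with shares of 1.79% and 0.475% of windows, were not matched in any of the 10 windows of the 7 genes. The *Tat* window held none of these letters. A match is a description of the letters and not of binding, which was not measured.

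The first comparison asked whether transcript levels of the gluconeogenic genes differed between *Prmt3LKO* and *Prmt3f/f* tumors. None of the 7 genes passed edgeR's quasi-likelihood test, with adjusted p-values from 0.812 upward, and the largest log2 fold change was 0.47. Genes were called when the adjusted p was below 0.05 and the fold lay at or beyond 2 or 0.5, and 0 of the 13892 genes tested (0%) met both limits. At an unadjusted p under 0.05 the test picked 912 of the 13892 genes (6.56%), 305 higher and 607 lower in *Prmt3LKO* tumors, and 0 of the 7. DESeq2 called 49 genes of the whole table and again 0 of the 7. As bulk tissue was sequenced, fewer cells of a type and less RNA per cell cannot be told apart.

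*Pcx* (ENSMUSG00000024892, chr19:4510472-4621752, plus strand), the entry step from pyruvate, was measured at 284.3, 440.8 and 531.1 CPM in *Prmt3f/f* tumors 7, 66 and 71, a mean of 418.7 ± 124.9 (SD, n = 3). In *Prmt3LKO* tumors 92, 93 and 94 it stood at 656.5, 552.8 and 534.2 CPM, a mean of 581.2 ± 65.9 (SD, n = 3). All 3 *Prmt3LKO* tumors lay above all 3 *Prmt3f/f* tumors, but the nearest values of the groups, 531.1 and 534.2 CPM, almost touched. The log2 fold change was 0.47 (SE 0.25, 95% interval -0.11 to 1.06) with an adjusted p of 0.812 by edgeR, and a two-sided exact permutation test returned p = 0.1, as small as 3 against 3 tumors can give. *Pcx* was the only one of the 7 genes whose groups did not overlap. Among all genes tested, the groups parted with *Prmt3LKO* higher in 5.56% and with *Prmt3LKO* lower in 6.60%. *Lrfn4* lies within *Pcx* on the other strand and had 5 to 20 counts per tumor. If strand was not used, reads of the 2 genes cannot be told apart where they overlap.

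*Pck1* (ENSMUSG00000027513, chr2:173153048-173159273, plus strand), which carries out the committed step from oxaloacetate, ran at 1086, 2448 and 3996 CPM in *Prmt3f/f* tumors 7, 66 and 71 (mean 2509.9 ± 1456, SD, n = 3). Levels in *Prmt3LKO* tumors 92, 93 and 94 were 2544, 579.9 and 2590 CPM (mean 1904 ± 1147, SD, n = 3). The groups overlapped, with one low tumor in each: tumor 7 among *Prmt3f/f* and tumor 93, the lowest of the 6, among *Prmt3LKO*. Between the groups, the log2 fold change was -0.40 (SE 0.63, 95% interval -1.86 to 1.07) with an adjusted p of 0.968 by edgeR and p = 0.7 by the exact permutation test. The highest and lowest tumors differed 6.89-fold, the widest range among the 7 genes.

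*Fbp1* (ENSMUSG00000069805, chr13:62864753-62888282, minus strand), the bypass of phosphofructokinase, had 369.9, 840.3 and 1013 CPM in the *Prmt3f/f* tumors, a mean of 741.2 ± 332.9 (SD, n = 3). The *Prmt3LKO* tumors had 934.8, 618.2 and 912.2 CPM, a mean of 821.7 ± 176.6 (SD, n = 3). Tumor 7 was lowest and tumor 93 next, and the other 4 tumors kept within 840.3 to 1013 CPM regardless of genotype. For this gene the log2 fold change was 0.15 (SE 0.37, 95% interval -0.72 to 1.01) with an adjusted p of 0.984 by edgeR and p = 0.7 by the exact permutation test.

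*G6pc* (ENSMUSG00000078650, chr11:101367561-101377903, plus strand), whose product releases glucose, was present at 120.0, 161.0 and 249.9 CPM in the *Prmt3f/f* tumors, a mean of 177.0 ± 66.4 (SD, n = 3). In *Prmt3LKO* tumors it had 152.4, 83.3 and 337.8 CPM, a mean of 191.2 ± 131.6 (SD, n = 3). Both the lowest tumor, 93, and the highest, 94, were *Prmt3LKO*, and their values enclosed the whole *Prmt3f/f* range. The fitted log2 fold change was 0.11 (SE 0.50, 95% interval -1.04 to 1.27) with an adjusted p of 0.990 by edgeR. The mean difference of log2 CPM was -0.057, with the opposite sign, and p = 0.9 by the exact permutation test.

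*Slc37a4* (ENSMUSG00000032114, chr9:44398176-44402963, plus strand), the glucose-6-phosphate transporter of the same step, was steadier. It had 141.4, 211.4 and 213.9 CPM in *Prmt3f/f* tumors (mean 188.9 ± 41.1, SD, n = 3) and 252.7, 161.2 and 222.5 CPM in *Prmt3LKO* tumors (mean 212.1 ± 46.6, SD, n = 3). Tumors 7 and 93 were again the lowest of their groups, and all 6 values lay within 1.79-fold of each other. The log2 fold change of 0.17 (SE 0.24) had an adjusted p of 0.963 by edgeR, and its 95% interval, -0.39 to 0.72, stayed inside the fold limits of a call. The coordinates of *Slc37a4* in the deposited table differ from those of GENCODE M21, and *Mir7085* lies within it.

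*Ppargc1a* (ENSMUSG00000029167, chr5:51454250-51567726, minus strand), the coactivator of the route, was the weakest of the 7, with 118 to 420 counts per tumor. Its levels were 6.09, 6.998 and 14.8 CPM in *Prmt3f/f* tumors (mean 9.29 ± 4.77, SD, n = 3) and 8.34, 5.32 and 11.7 CPM in *Prmt3LKO* tumors (mean 8.46 ± 3.20, SD, n = 3). The groups overlapped, with tumor 71 highest and tumor 93 lowest. The log2 fold change was -0.14 (SE 0.41, 95% interval -1.08 to 0.80) with an adjusted p of 0.988 by edgeR and p = 0.9 by the exact permutation test. In GENCODE M21, 4 gene models still to be tested experimentally overlap *Ppargc1a*.

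*Tat* (ENSMUSG00000001670, chr8:109990437-109999803, plus strand), on the amino acid side, had 354.6, 1271 and 1782 CPM in *Prmt3f/f* tumors, a mean of 1135.7 ± 723 (SD, n = 3). In *Prmt3LKO* tumors it had 1749, 373.7 and 1938 CPM, a mean of 1353 ± 854 (SD, n = 3). Tumors 7 and 93 lay together at the bottom, more than 3-fold below the other 4, which held both genotypes. The log2 fold change was 0.25 (SE 0.70, 95% interval -1.38 to 1.89) with an adjusted p of 0.988 by edgeR and p = 0.6 by the exact permutation test.

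**Figure D1:**
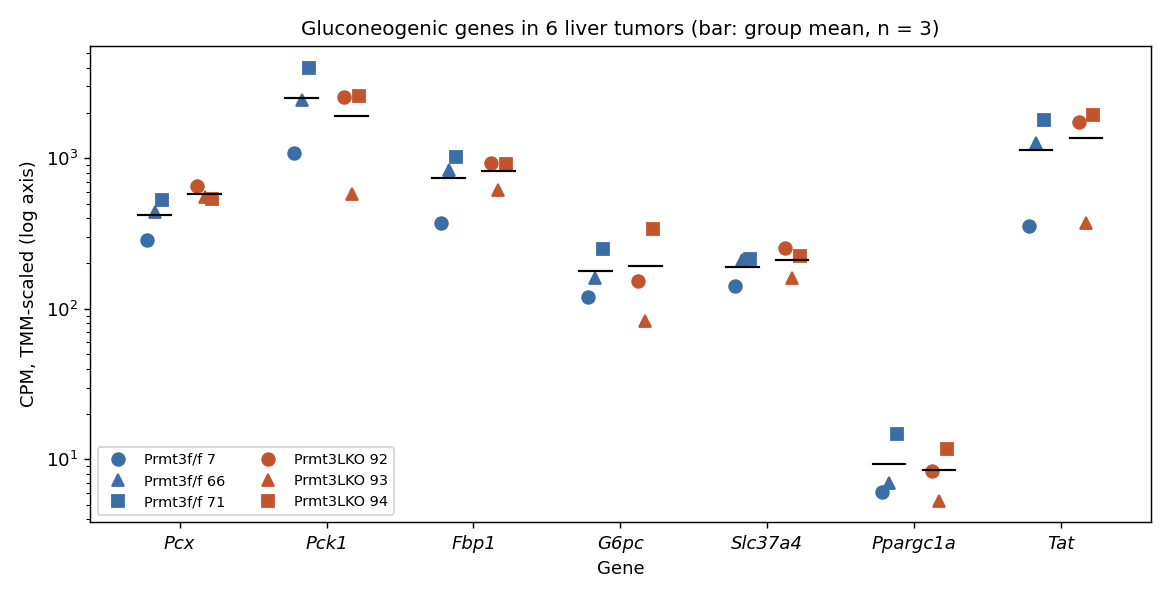
Level of each gluconeogenic gene in CPM (vertical log axis) in the 3 *Prmt3f/f* and 3 *Prmt3LKO* tumors, by gene, with 1 point for each tumor and bars for group means. Only for *Pcx* do the groups separate, by the gap from 531.1 to 534.2 CPM, while *Pck1* and *Tat* have 1 low tumor in each group.

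The point estimates were above 0 for 5 of the 7 genes and below 0 for *Pck1* and *Ppargc1a*, with a median log2 fold change of 0.15, against 0.00037 over all genes tested, of which 50.1% were above 0. The intervals set how far this comparison could see. Those of *Pck1*, *G6pc* and *Tat* reached past both fold limits, so differences as large as those limits, in either direction, lay within the error. Only for *Slc37a4* did the interval lie inside both limits. For 6 of the 7 genes, *Pcx* excepted, the sign of the estimate turned when 1 tumor was left out. *Pck1* went from -0.40 to 0.033 without tumor 93 and to 0.11 without tumor 71, and *Tat* from 0.25 to -0.18 without tumor 7 and to -0.096 without tumor 94. For *Fbp1* and *Slc37a4* leaving out tumor 7 gave -0.18 and -0.012. *G6pc* ran from -0.59 without tumor 94 to 0.47 without tumor 93, with -0.11 without tumor 7, and *Ppargc1a* reached 0.37 without tumor 71 and 0.11 without tumor 93. The estimate for *Pcx* kept its sign throughout, at 0.25 without tumor 7 and up to 0.68 without tumor 71.

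**Figure D2:**
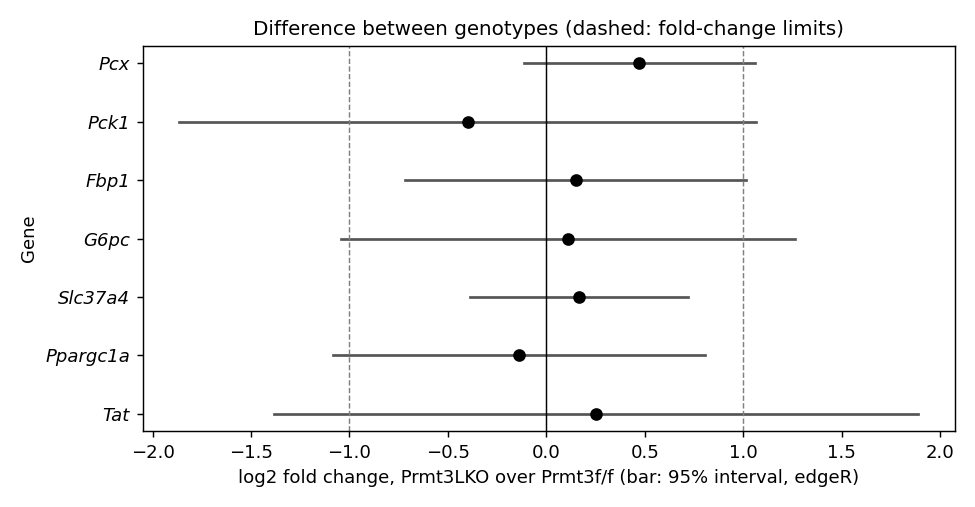
Log2 fold change of *Prmt3LKO* over *Prmt3f/f* tumors for each of the 7 genes (horizontal axis), with the edgeR estimate as a point and its 95% interval as a line. Every interval includes 0, and that of *Tat*, from -1.38 to 1.89, is the widest.

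The 7 genes varied more between tumors of one genotype than most genes did. The standard deviation of log2 CPM within groups was 1.28 for *Tat*, 1.10 for *Pck1* and 0.809 for *G6pc*, with smaller values in 98.0%, 96.8% and 92.2% of the 13892 genes tested. It was 0.625 for *Ppargc1a* (86.1%) and 0.596 for *Fbp1* (84.7%). *Pcx*, at 0.346 (62.4%), and *Slc37a4*, at 0.337 (60.9%), were nearer to the median of all genes, 0.277. Of the 7 genes, *Tat* and *Pck1* were thus the most variable, and *Pcx* and *Slc37a4* the least.

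**Figure D3:**
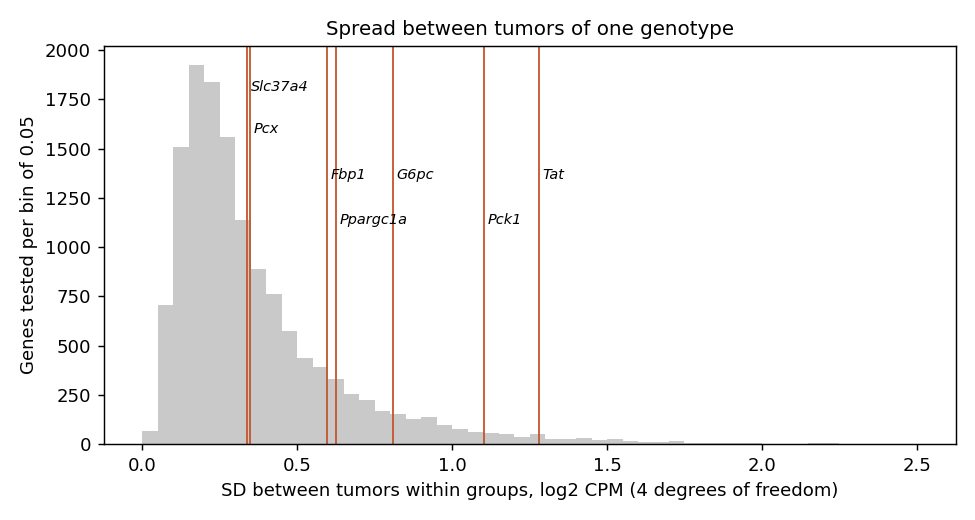
Distribution of the standard deviation of log2 CPM within groups over the 13892 genes tested (histogram, number of genes on the vertical axis), with the 7 gluconeogenic genes marked by lines. *Tat* and *Pck1*, at 1.28 and 1.10, lie in the tail, and *Slc37a4* and *Pcx*, at 0.337 and 0.346, lie nearer to the bulk of genes.

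The low values of the 7 genes lay mostly in the same pair of tumors, one of each genotype. *Prmt3f/f* tumor 7 was among the 2 lowest tumors for 7 of the 7 genes and *Prmt3LKO* tumor 93 for 6 of the 7. The exception was *Pcx*, for which tumor 93 was the second highest and tumor 66 the second lowest. On the log2 scale, centered on the mean of each gene, the average over the 7 genes was -0.77 in tumor 7 and -0.73 in tumor 93. It was 0.086 in tumor 66, 0.58 in tumor 71, 0.33 in tumor 92 and 0.51 in tumor 94. Together the 7 genes took 0.243% and 0.247% of all counts in tumors 7 and 93, and 0.525% to 0.793% in the other 4. Tumors 7 and 93 were the 2 lowest for 11.5% of all genes tested and for 22.1% of the 1186 genes with a mean of at least 100 CPM. This pair was picked after the values were seen, so these shares are a description and carry no test.

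**Figure D4:**
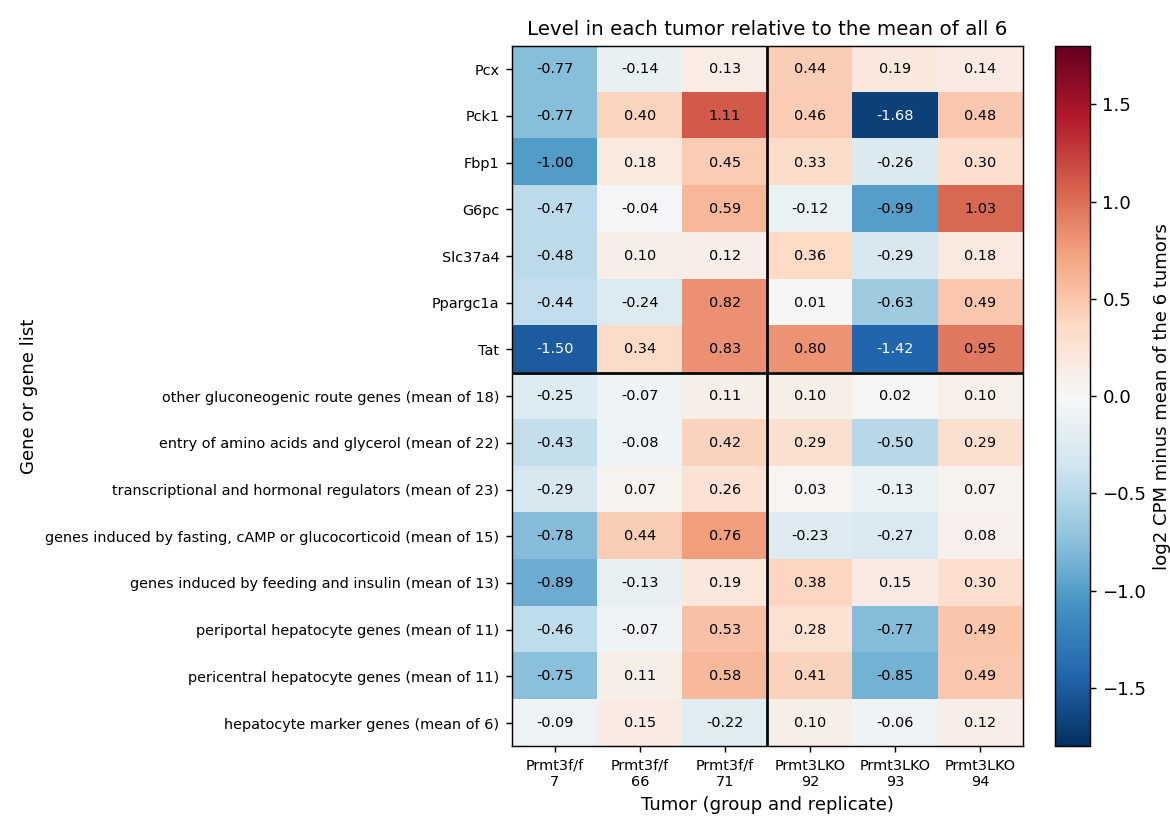
Heat map of log2 CPM minus the mean of the 6 tumors (color), with tumors in columns and, in rows, the 7 gluconeogenic genes above the line and the means of 8 gene lists under it. The *Tat* row reads -1.50 in tumor 7 and -1.42 in tumor 93 against 0.34 to 0.95 in the other 4. The mean of the 6 hepatocyte markers keeps within -0.22 to 0.15, which does not show single markers.

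Other genes were also lowest in these tumors. Tumors 7 and 93 were the 2 lowest for 9 of 11 pericentral genes, such as *Cyp2e1*, a cytochrome that activates DEN and CCl4, with 166.1 CPM in tumor 7 and 244.1 CPM in tumor 93 against 1057 to 1330 CPM in the other 4. The same held for 6 of 11 periportal genes and for 13 of 22 genes of amino acid and glycerol entry. It held for only 4 of 18 other genes of the route, near the 22.1% of genes with at least 100 CPM. Among 23 transcriptional and hormonal regulators it held for 7. The counts were 7 of 15 genes induced by fasting, cAMP or glucocorticoid and 2 of 13 induced by feeding and insulin. Of the 6 hepatocyte markers, 0 had both tumors lowest, and 0 of the 7 leukocyte markers did, while 3 of 5 endothelial markers had. Tumor 7 also held the 4103 CPM of cholangiocyte markers, whereas tumor 93 had 282.0 CPM of them, within the range of the other tumors. On the centered log2 scale, the mean of the pericentral genes was -0.75 in tumor 7 and -0.85 in tumor 93, and that of the 6 hepatocyte markers -0.086 and -0.062. Single hepatocyte markers varied more than their mean. In tumor 7, *Ahsg* had its lowest level of all tumors, 9537 CPM, and *Fgb* its highest, 8124 CPM. The part of cell composition in the levels of the 7 genes was not tested.

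Levels can be compared between genes only per length, as FPKM, the count divided by gene length and total count. Averaged over the 6 tumors, *Tat* had 481.4 ± 273.7 FPKM, *Pck1* 390.4 ± 216.7 and *Fbp1* 311.9 ± 92.9 (SD, n = 6). They were followed by *Pcx* at 116.6 ± 27.9, *Slc37a4* at 95.7 ± 17.04, *G6pc* at 75.9 ± 38.2 and *Ppargc1a* at 1.05 ± 0.438 FPKM (SD, n = 6). *Fbp1* exceeded *Pcx* and *G6pc* exceeded *Ppargc1a* in all 6 tumors. Neighbors in the order were not always apart: *Tat* exceeded *Pck1* in 4 of 6 tumors, *Pck1* exceeded *Fbp1* in 5, *Pcx* exceeded *Slc37a4* in 5 and *Slc37a4* exceeded *G6pc* in 4. In tumor 93, where *Pck1* was lowest, *Fbp1* led the order.

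The cytosolic or liver forms of the enzymes outweighed their relatives throughout. The FPKM of *Pck1* was 39.8, 71.6 and 140.2 times that of *Pck2*, the mitochondrial form, in *Prmt3f/f* tumors and 99.5, 12.7 and 126.4 times in *Prmt3LKO* tumors. For *G6pc* over *G6pc3*, the form of most other tissues, the ratios were 41.3, 48.8 and 88.0, and 57.2, 36.3 and 154.4. Both ratios were lowest in tumors 7 and 93, and the genotypes overlapped. *Fbp2* and *G6pc2*, the muscle and islet forms, were too low to be tested.

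*Pck1* and *Fbp1* were also set against the glycolytic enzymes they oppose, as a ratio of FPKM within a tumor, which does not depend on library size. *Pck1* over *Pklr*, pyruvate kinase of liver, was 4.54, 5.15 and 8.29 in *Prmt3f/f* tumors and 5.87, 1.32 and 7.25 in *Prmt3LKO* tumors. The mean log2 ratios were 2.53 ± 0.46 and 1.94 ± 1.34 (SD, n = 3 each), and tumor 93 alone lay under the *Prmt3f/f* range. *Fbp1* over *Pfkl*, phosphofructokinase of liver, was 26.7, 31.8 and 27.7, and 39.6, 14.7 and 29.2, with mean log2 ratios of 4.84 ± 0.13 and 4.68 ± 0.73 (SD, n = 3 each). Here the *Prmt3f/f* tumors, tumor 7 included, were close together, and *Pfkl* was low in tumor 7 as well, at 27.1 CPM, and high in tumor 93, at 82.2 CPM. For neither pair was the difference between genotypes larger than the spread between tumors by the test. The differences of mean log2 ratio were -0.60 and -0.16, with exact permutation p = 0.7 and 0.9, or 0.9 for each after adjustment over the 3 pairs tested.

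**Figure D5:**
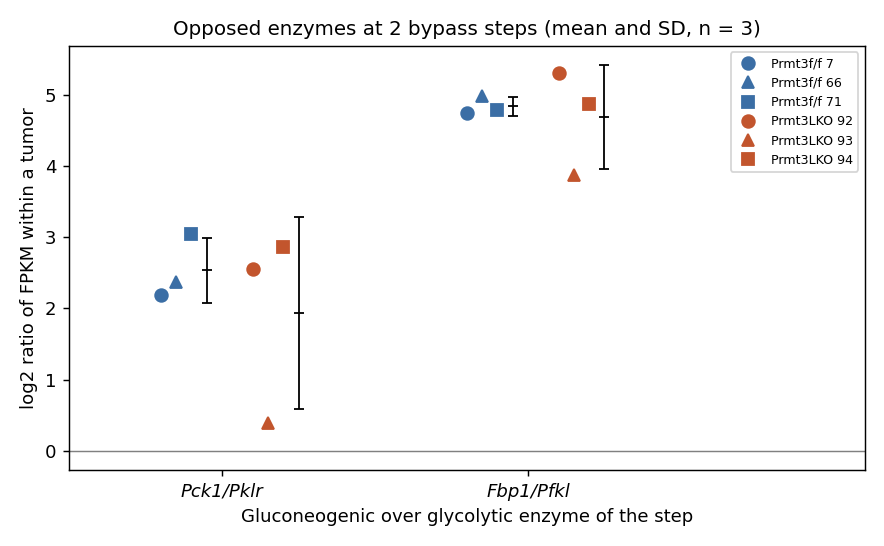
Log2 ratio of FPKM of *Pck1* to *Pklr* and of *Fbp1* to *Pfkl*, the glycolytic enzymes of the opposite reactions (vertical axis), in the 3 *Prmt3f/f* and 3 *Prmt3LKO* tumors, with the mean and SD of each group beside its points. The groups overlap for both pairs, with tumor 93 lowest for *Pck1* over *Pklr* (0.40) and *Fbp1* over *Pfkl* (3.88).

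The list of other genes of the route holds relatives of its enzymes, genes shared with glycolysis, and genes that move carbon across the mitochondrial membrane. Of 18 such genes tested, 15 had estimates above 0 and 3 below, with a median log2 fold change of 0.10, and 0 passed the test. The 3 below 0 were *G6pc3*, *Got1* and *Mpc1*, the last a subunit of the mitochondrial pyruvate carrier. An unadjusted p under 0.05 was reached by *Pgk1*, phosphoglycerate kinase, and *Pgam1*, phosphoglycerate mutase, and by 6.56% of all genes tested. *Pgk1* had 199.8, 206.6 and 247.3 CPM in *Prmt3f/f* and 284.4, 318.7 and 358.3 CPM in *Prmt3LKO* tumors, with a log2 fold change of 0.56 (SE 0.17) and an adjusted p of 0.628 by edgeR. All *Prmt3LKO* values of *Pgk1* lay above all *Prmt3f/f* values, as they did for *Pgam1* and *Tpi1*, triosephosphate isomerase, and the reverse held for *G6pc3*. Over all genes tested, the groups parted with *Prmt3LKO* higher in 5.56% and lower in 6.60%, and the list was not tested as a set. Processed pseudogenes resemble *Pgk1* and *Tpi1* closely, and how reads shared with them were counted is not given in the sources used here. *Gpi1*, glucose-6-phosphate isomerase, showed a log2 fold change of 0.30.

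Genes that bring in amino acids and glycerol, tested as 22 genes, split into 12 above and 10 below 0 with a median log2 fold change of 0.042. None reached an unadjusted p under 0.05 and none had groups apart. *Tdo2*, which opens the breakdown of tryptophan, gave a log2 fold change of -0.12, and *Slc38a4*, an amino acid transporter, gave 0.11. *Slc38a4* had 375.7 CPM in tumor 7 and 385.0 CPM in tumor 93, against 582.2 to 902.1 CPM in the other 4 tumors.

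Of 23 transcriptional and hormonal regulators, 11 were above and 12 below 0, with a median log2 fold change of -0.038. *Hnf4a*, a transcription factor of hepatocytes, gave -0.038. *Creb3l3*, a membrane-bound factor induced by fasting, gave -0.087. Only *Esrra*, a nuclear receptor partner of PGC-1α, had an unadjusted p under 0.05, as 6.56% of all genes tested had. It averaged 27.5 CPM in *Prmt3f/f* and 35.6 CPM in *Prmt3LKO* tumors, a log2 fold change of 0.38 (SE 0.14) with an adjusted p of 0.684 by edgeR.

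Genes that respond to fasting, cAMP or glucocorticoid and genes that respond to feeding and insulin were set beside the 7 genes, which are controlled by the same signals. Of 15 fasting genes 4 were above and 11 below 0, with a median log2 fold change of -0.34, and 0 passed the test. *Pdk4*, a kinase that restrains pyruvate dehydrogenase, had 7.02, 20.1 and 26.2 CPM in *Prmt3f/f* tumors and 9.32, 8.71 and 8.09 CPM in *Prmt3LKO* tumors, a log2 fold change of -1.03 (SE 0.42) with an adjusted p of 0.742 by edgeR. It and *Mt2*, a metallothionein with a log2 fold change of -1.14, were the 2 of the 15 with an unadjusted p under 0.05. Of all genes tested, 6.56% had such a p in either direction. For both *Pdk4* and *Mt2* the groups overlapped. *Igfbp1*, which insulin suppresses, gave -0.50.

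Of 13 feeding genes 12 were above and 1 below 0, with a median log2 fold change of 0.60, and again 0 passed the test. *Fasn*, *Acaca*, *Scd1*, *Me1* and *Elovl6*, all of fatty acid synthesis, had an unadjusted p under 0.05 by edgeR, as 6.56% of all genes tested had in either direction. For 5 of the 13 genes all *Prmt3LKO* tumors lay above all *Prmt3f/f* tumors, against 5.56% of all genes tested. *Me1* was not among them. The list was chosen with earlier results of these data known, so these shares carry no test. *Scd1*, the stearoyl-CoA desaturase, averaged 5641 ± 1706 CPM in *Prmt3f/f* and 11743 ± 2477 CPM in *Prmt3LKO* tumors (SD, n = 3 each), a log2 fold change of 1.06 (SE 0.32) with an adjusted p of 0.606 by edgeR. *Fasn*, fatty acid synthase, averaged 1103 ± 364 and 2045 ± 180 CPM (SD, n = 3 each), a log2 fold change of 0.89 (SE 0.29) with an adjusted p of 0.648 by edgeR. For the glycolytic enzymes of the pairs above, which are in this list, the fits gave 0.041 for *Pklr* and 0.33 for *Pfkl*, each with overlapping groups. *Pfkfb1*, the 1 gene of the list below 0, gave -0.42, also with overlapping groups. Without tumor 7 the median of the feeding genes was 0.36, and without tumor 71 that of the fasting genes was near 0.

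Gluconeogenesis is strongest near the portal vein, so genes of the liver zones were read in the same way. Of 11 periportal genes 6 were above and 5 below 0 (median log2 fold change 0.14), with 0.20 for *Cps1* and 0.21 for *Arg1* of the urea cycle. Of 11 pericentral genes 5 were above and 6 below 0 (median -0.079), with 0.015 for *Cyp2e1* and -0.079 for *Gulo*, of ascorbate synthesis. None of either list had an unadjusted p under 0.05.

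Which genes ran most alike across the 6 tumors was measured as the root mean square difference of centered log2 CPM. The candidates were 7779 tested genes with a mean of at least 10 CPM. The 7 genes and predicted or clone-named genes (Gm or Rik names) were passed over as candidates. Among the 7 genes themselves, *Pcx* and *Slc37a4* had the smallest difference, at 0.25, and *Pcx* and *Pck1* the largest, at 0.90. A small difference can also arise because both genes vary little, as *Pcx* and *Slc37a4* did. In tumor 93, *Pcx* lay above its mean, at 0.19, and *Slc37a4* under its mean, at -0.29. *G6pc* and *Ppargc1a* lay 0.30 apart, and *Pck1* and *Tat* 0.41. Among the 7779 candidates, the nearest genes to *Pck1* were *Rnase4* (0.17) and *Cyp2c44* (0.24). For *Tat* they were *Homer2* (0.15) and *Nr1i3* (0.16), the nuclear receptor CAR, and for *G6pc* *Ces2a* (0.17) and *Kcnk5* (0.17). *Syt1* (0.062) and *Tef* (0.073) were nearest to *Fbp1*, and *Smarcd2* (0.056) and *Apoh* (0.059) to *Slc37a4*. *Pcx* ran closest to *Snrk* (0.082) and *Cnih1* (0.088), and *Ppargc1a* to *Nudt7* (0.12) and *Cdhr5* (0.13). With 6 tumors and 7779 candidates some near matches arise for any gene, and the median difference over all candidates was between 0.34 and 1.06.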

How the data were processed

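RNA of 6 liver tumors was sequenced in paired ends. The submitters' processing notes name bcl2fastq 2.19, HISAT2 2.0.4 and StringTie 1.3.0, with the build GRCm38. The counter, its annotation and its strand setting are not given in the sources used here. The authors deposited 1 table with unnormalized counts of reads per gene and tumor, and the deposited FPKM divide these counts by gene length and total count, which was checked on 8975 genes. Of 34745 genes, 14468 had no count, and 0 columns were left unused.

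Counts were filtered with filterByExpr (minimum count 10, minimum total 15), scaled by TMM and fitted with edgeR 4.0.16 (R 4.3.3) for a quasi-likelihood test, and p-values were adjusted over 13892 genes after Benjamini and Hochberg. The 2 genotypes were taken from the labels. Log2 CPM used a prior count of 2. For single values the permutation test was exact and two-sided. Fits were tested on simulated data. Gene lists were written by hand and are described by counts and medians. The 7 genes and the lists were chosen with earlier results of these data known. Genes outside the 7 were named where they had an unadjusted p under 0.05 or the 2 highest mean CPM of their list. Others belonged to an enzyme pair or were 1 of the 2 nearest in profile to a member. *Pck2*, *G6pc3*, *Fbp2*, *G6pc2*, *Tpi1*, *Got1*, *Mpc1*, *Pfkfb1*, *Lrfn4*, *Prmt3* and other cell type markers were named besides, after their values were seen. Some genes of the lists, and 1 of the 3 enzyme pairs, are not reported here. Alternatives were DESeq2 1.42.0, no TMM, other filters, limma-voom (limma 3.58.1), log2 FPKM with a pseudocount of 1, a prior count of 0.5, and each tumor left out. Floors of 3 counts cover counting error only.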

Additional observations from a re-analysis of the deposited data

How the results depend on the processing

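None of the 7 genes was called under any alternative, and their smallest adjusted p was 0.590, for *Pcx* without tumor 71, where its unadjusted p was under 0.05. *Pcx* kept its direction in all 12 alternatives. Among settings that kept all tumors, the log2 fold change of *G6pc* turned from 0.11 to -0.038 with limma-voom and to -0.077 with log2 FPKM, and no other of the 7 genes turned. Leaving out 1 tumor at a time, the log2 fold change ranged from -0.76 to 0.11 for *Pck1*, from -0.18 to 0.44 for *Fbp1*, from -0.59 to 0.47 for *G6pc*, from -0.012 to 0.33 for *Slc37a4*, from -0.45 to 0.37 for *Ppargc1a* and from -0.18 to 0.74 for *Tat*. The log2 ratio difference ranged from -1.06 to 0.17 for *Pck1* over *Pklr* and from -0.47 to 0.25 for *Fbp1* over *Pfkl*, turning without tumor 93 in both. Over the whole table, 0 genes were called by edgeR, 49 by DESeq2 and 2 by edgeR with no filter beyond 1 count, and 0 under the other alternatives. The cause was not tested. No paired analysis was possible because the groups share no replicate numbers. There were 3 tumors in each group, and *Ppargc1a*, the lowest of the 7 genes, had at least 118 counts per tumor.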
